A study of Mus musculus with 36 samples.

Results

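Transcript levels of 32 genes for glutamate receptors and their auxiliary subunits were taken from RNA sequencing of the anterior cingulate cortex (aCC) of mice. The genes were listed by name, with earlier results of these data known. They are 4 AMPA, 6 NMDA, 5 kainate, 1 delta and 6 metabotropic receptor genes, 8 genes for auxiliary subunits of AMPA receptors and 2 for those of kainate receptors. All 32 were among the 52636 genes of the table, and all 32 had at least 0.1 TPM (transcript abundance, scaled by length and to the same total in each library) in each of the 36 libraries. Punches of the right aCC came from 36 female mice of 8 to 11 weeks, 1 library per mouse. The line, on a C57BL/6NTac background, was heterozygous for a deletion inside Brd1 (Brd1+/-), a gene for a protein that reads histone acetylation, and was compared with litter-matched wild-type (WT) mice. Both genotypes received injections of saline (vehicle) or of the tricyclic antidepressant imipramine (IMN) at 10 mg/kg, and had been through behavioural tests including a forced swim shortly before the brains were collected. WT mice gave 8 vehicle and 10 IMN libraries, and Brd1+/- mice gave 9 libraries of each treatment. Every Brd1+/- mouse came from 1 engineered line with 1 intact allele. A punch mixes cell types, so that fewer cells of a type and less RNA per cell cannot be told apart.

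Glutamate is the main excitatory transmitter of the cortex. AMPA receptors are tetramers of GluA subunits (Gria1 to Gria4) that carry the fast synaptic current. Their trafficking and gating are shaped by TARPs (the Cacng genes of this list), cornichons (Cnih2, Cnih3) and CKAMP proteins such as Shisa9. NMDA receptors combine the obligatory GluN1 subunit (Grin1) with GluN2 or GluN3 subunits and open only when glutamate and a co-agonist are bound and the membrane is depolarised. Kainate receptors (Grik genes, with the auxiliary proteins Neto1 and Neto2) modulate transmission on both sides of the synapse, and Grid1 encodes a delta receptor that links to presynaptic neurexin through cerebellins. Metabotropic receptors (Grm genes) signal through G proteins. Grm5 couples to phospholipase C, and Grm2, Grm3, Grm4, Grm7 and Grm8 couple to inhibition of adenylyl cyclase.

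Brd1 itself was lower in the Brd1+/- libraries. Its lowest, median and highest TPM were 22.6, 26.1 and 31.9 in WT vehicle, 13.8, 16.0 and 20.9 in Brd1+/- vehicle, 17.9, 24.0 and 27.8 in WT IMN and 13.5, 17.3 and 19.4 in Brd1+/- IMN. The vehicle groups did not overlap, the IMN groups did, and over both treatments the difference was -0.54 on the log2 scale (limma adjusted p = 2.8e-05). Within vehicle mice alone and within IMN mice alone, 0 of all genes tested passed an adjusted p-value under 0.05. Brd1 itself was thus not called in either comparison. Excitatory markers were high (Slc17a7 median 1148 TPM, Nrgn median 2307 TPM). Brd1+/- vehicle 6 stood apart by choroid plexus and striatal markers (Ttr, a choroid plexus gene, reached 3806 TPM against a median of 0.125). WT vehicle 1 stood apart by a low upper-layer marker score of 4.89 and a high deep-layer score of 4.75. WT IMN 3, Brd1+/- vehicle 7 and Brd1+/- IMN 6 had the highest Slc17a6, between 20.2 and 51.3 TPM. TPM do not keep the read depth, so the error of each value is the spread between mice.

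The level of the genes spanned from Cnih2, at a median of 337 TPM over the 36 libraries, to Cacng5, at 2.61 TPM. TPM are scaled by transcript length, so that levels can be set side by side between genes. Each pair of neighbours in the order was compared library by library. Cnih2 exceeded Grin1 in 31 of 36 libraries, and Grin1 exceeded Gria2, Gria1 exceeded Gria4 and Grin2d exceeded Cacng5 in 36 of 36. Most other neighbours changed places, such as Grin2b and Neto1 (18 of 36) or Grik1 and Grik4 (18 of 36), and their order is not separated by the spread between mice.

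**Figure D1:**
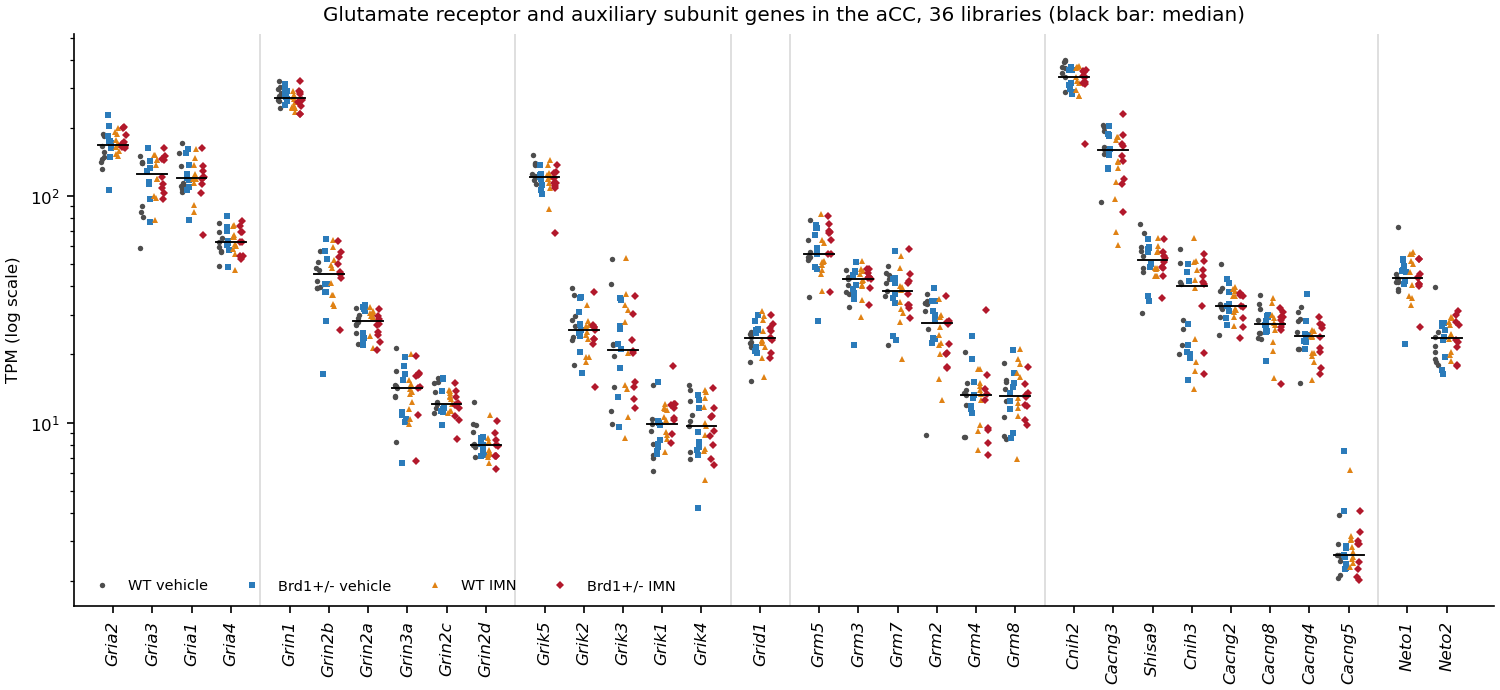
TPM (log axis) of the 32 genes by library, grouped by receptor class, with 1 point per mouse marked by group and the median over 36 libraries as a black bar. Cnih2 and Grin1 lie highest at medians of 337 and 271 TPM, Cacng5 lies lowest at 2.61 TPM, and Grik3 and Cnih3 spread widely between mice.

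Among AMPA subunits, Gria2, whose edited RNA makes the channel impermeable to calcium, was the highest at a median of 168 TPM. It took 35.9% of the summed TPM of Gria1 to Gria4 (range 29.2% to 43.6%). Gria3 stood at 125 TPM, Gria1, the subunit of activity-dependent insertion, at 119.6 TPM, and Gria4 at 62.6 TPM. Gria1 and Gria3 each supplied about as much of the sum, with median shares of 24.8% and 26.0%, and Gria4 supplied 13.6%.

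The auxiliary subunits of AMPA receptors covered the whole range of levels. Cnih2 (chr19:5092868-5098521, GRCm38), the cornichon that slows AMPA receptor closing, was the highest of all 32 genes, and its relative Cnih3 stood at 40.0 TPM. Cacng3 (chr7:122670492-122769393), the TARP gamma-3, was the highest TARP at 159 TPM and took 64.3% of the summed TPM of the 5 listed TARPs (range 42.6% to 71.1%). Cacng7, a further TARP that is not among the 32 genes, had a median of 109 TPM, and with it in the sum the share of Cacng3 was 44.5% (range 23.5% to 52.0%). Cacng2, the TARP stargazin, stood at 32.7 TPM, Cacng8 at 27.4, Cacng4 at 24.1 and Cacng5 at 2.61. Shisa9, which modulates AMPA receptor desensitisation, stood at 52.2 TPM.

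Grin1 (chr2:25291181-25319187), the subunit that every NMDA receptor needs, stood at 271 TPM and took 71.8% of the summed TPM of the 6 NMDA genes (range 64.9% to 80.5%). Of the GluN2 genes, Grin2b stood at 45.4 TPM, Grin2a at 28.1, Grin2c at 12.1 and Grin2d at 7.96. Grin2b, the subunit of slower currents, was 62.9% of the sum of Grin2a and Grin2b, with a range of 39.7% to 71.4%. Grin3a, a subunit that lowers calcium entry, stood at 14.2 TPM.

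Grik5, which forms a kainate receptor only together with another subunit, stood at 122 TPM and took 63.9% of the summed TPM of Grik1 to Grik5 (range 53.6% to 73.5%). The subunits that can supply such a partner were lower, with Grik2 at 25.6 TPM, Grik3 (chr4:125490700-125714173) at 20.9 and Grik1 at 9.90. Grik4, which also needs one of those partners, stood at 9.70 TPM. The share of Grik3 ran from 4.93% to 22.4%. Neto1 stood at 43.7 TPM, Neto2 at 23.7 TPM and Grid1 at 23.6 TPM. Of the metabotropic receptors, Grm5 (55.5 TPM), Grm3 (43.0 TPM) and Grm7 (38.1 TPM) were above the autoreceptor gene Grm2 (27.6 TPM, chr9:106643095-106656082), and Grm4 (13.2 TPM) and Grm8 (13.1 TPM) were lowest.

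The genes differed widely in how much they varied between mice of 1 group. The pooled within-group SD of log2(TPM + 0.5) was lowest for Grin1, at 0.12, and highest for Grik3, at 0.72, followed by Cnih3 (0.65), Grm4 (0.45), Grm2 (0.45) and Cacng3 (0.42). Because low genes vary more, each SD was ranked among all tested genes whose mean level lay within 0.5 log2 units. Grin1 lay at percentile 8.48 of 342 genes, and Grik3 at percentile 98.7 of 3261. In all, 28 of the 32 genes were above the median of genes of like level, and 9 were above the 90th percentile. The ratio of the highest to the lowest library was 6.26 for Grik3, 4.62 for Cnih3, 4.44 for Grm2 and 4.38 for Grm4, and 1.40 for Grin1.

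The sequence upstream of the widest-spread gene (Grik3), of the steadiest (Grin1) and of Grm2, which ran opposite to Grik3 across mice as described further on, is given so that they can be compared. Each is the 150 bases just before the RefSeq start site in build GRCm38.p6, on the gene's own strand, at chr4:125490546-125490695 (+) for Grik3, chr9:106656110-106656259 (-) for Grm2 and chr2:25319188-25319337 (-) for Grin1, and none overlaps an annotated exon. Capitals mark the GC box letters GGGCGG, searched on both strands.
Grik3: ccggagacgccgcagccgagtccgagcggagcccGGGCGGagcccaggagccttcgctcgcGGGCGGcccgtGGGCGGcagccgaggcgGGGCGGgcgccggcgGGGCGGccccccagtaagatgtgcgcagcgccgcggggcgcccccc
Grm2: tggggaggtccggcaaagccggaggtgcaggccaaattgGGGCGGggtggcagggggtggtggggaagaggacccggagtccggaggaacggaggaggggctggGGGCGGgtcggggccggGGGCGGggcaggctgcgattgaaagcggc
Grin1: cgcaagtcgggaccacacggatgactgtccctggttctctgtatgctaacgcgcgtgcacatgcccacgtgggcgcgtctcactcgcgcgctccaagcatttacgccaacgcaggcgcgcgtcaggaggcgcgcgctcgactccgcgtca
Grik3 held 5 GC boxes and 26 CpG in a window of 84.0% G and C, Grm2 held 3 and 12 in one of 74.0%, and Grin1 held 0 and 23 in one of 66.0%. Of all 32851 promoter windows of this length, 28.6% held GGGCGG, and the median window had 4 CpG and 54.0% G and C. Of the 20 listed genes with an entry in the RefSeq table, 11 held GGGCGG in at least 1 window and 0 held TATAAA, which 7.6% of all windows held. The listed genes were counted by gene and the background by window. A gene can have several windows, so the counts and the shares cannot be set against each other. These letters were searched on their own, without any measure of binding.

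Differences between groups were tested with limma on log2(TPM + 0.5), in a fit of all 25572 genes that passed the filter, and the differences given are all in these log2 units. The question of the study was whether Brd1+/- mice differ from WT mice and whether IMN shifts expression. At an adjusted p-value under 0.05, 0 of the 32 genes were called in any of the 7 comparisons. Among all genes tested the share called was 0% for Brd1+/- vehicle against WT vehicle, 0% for Brd1+/- IMN against WT IMN, 0.00782% for Brd1+/- IMN against Brd1+/- vehicle and 0% for WT IMN against WT vehicle. It was 0.274% for IMN over both genotypes, 0.00391% (Brd1 alone) for genotype over both treatments and 0% for the genotype by IMN interaction. The comparisons share libraries, so their results are not independent of each other. Even Brd1, the targeted gene, was missed in both genotype comparisons within a treatment. A missing call does not show equal levels: the 95% intervals of the pooled comparisons reached -0.59 to 0.62 for IMN and -0.53 to 0.39 for genotype over the 32 genes.

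**Figure D2:**
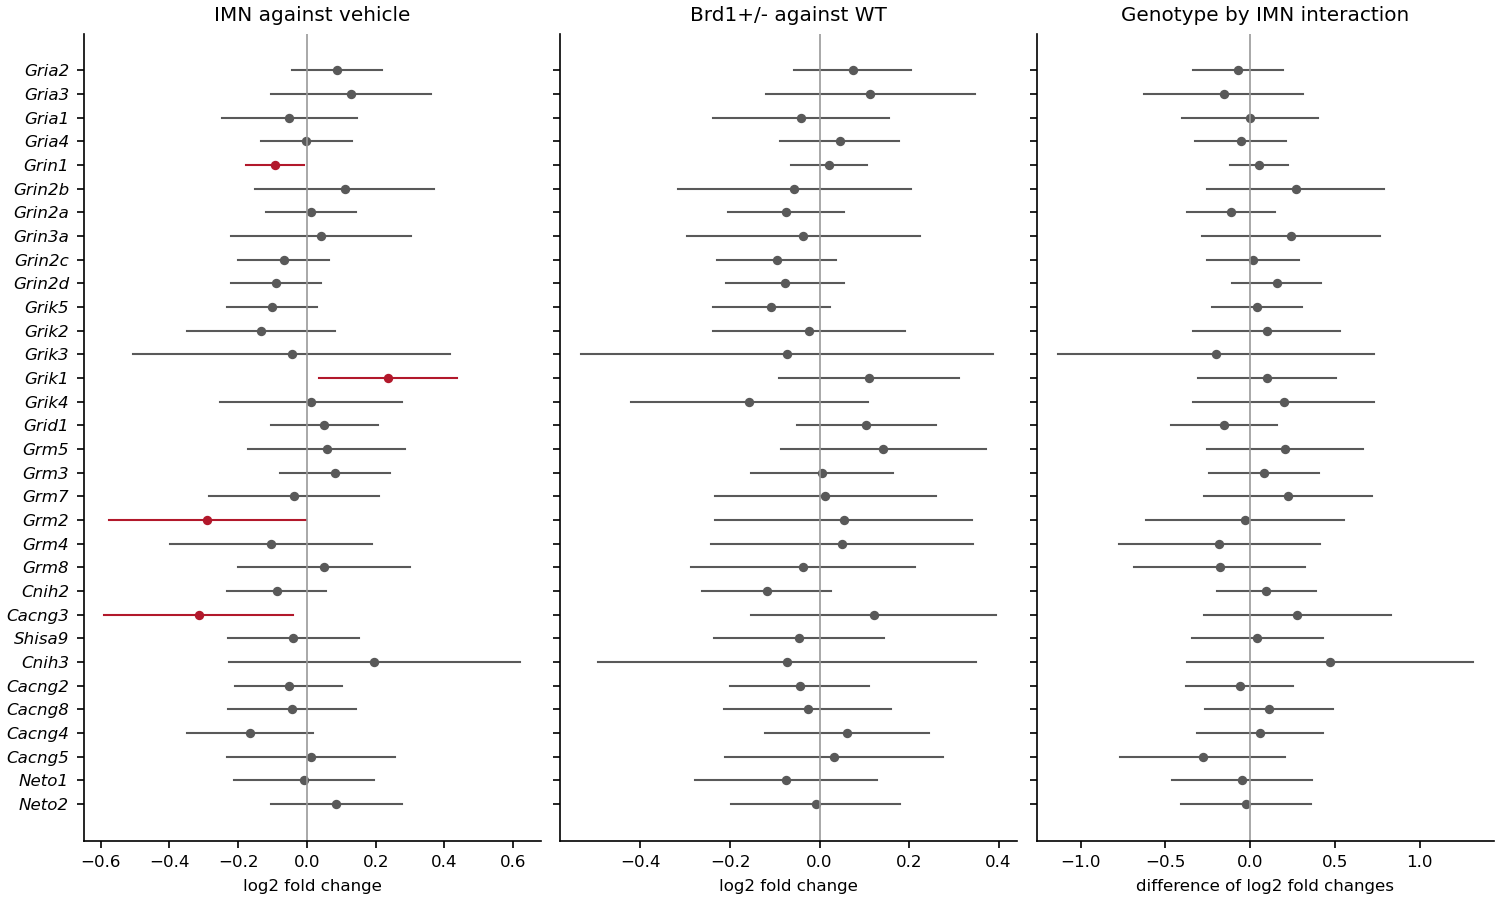
Estimates for the 32 genes with 95% intervals from limma: the log2 fold change of IMN against vehicle over both genotypes (left), that of Brd1+/- against WT over both treatments (middle) and the genotype by IMN interaction (right), each on its own axis. Red marks Grin1, Grik1, Grm2 and Cacng3, the 4 genes with an unadjusted p-value under 0.05, none of which passed the adjustment, and the widest intervals belong to Grik3 and Cnih3.

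Between Brd1+/- vehicle and WT vehicle, Cnih2 alone reached an unadjusted p-value under 0.05 (0 higher, 1 lower of 32, where 1.22% of all genes were higher and 2.53% lower at that level). Cnih2 ran from 287 over a median of 368 to 399 TPM in WT vehicle and from 282 over 309 to 370.1 TPM in Brd1+/- vehicle. Of the 9 Brd1+/- vehicle libraries, 8 lay below the WT vehicle median, and the groups overlapped. The log2 fold change was -0.17 (SE 0.075, interval -0.33 to -0.01, limma p = 0.0373, adjusted p = 1.00; exact permutation p = 0.0401). Grik5 was next, from 112 to 151 TPM in WT vehicle and from 102 to 137 TPM in Brd1+/- vehicle, with 8 of 9 below the WT median and a fold change of -0.13 (SE 0.069, exact permutation p = 0.0748). Grid1 ran from 15.3 to 25.1 TPM in WT vehicle and from 20.2 to 29.9 TPM in Brd1+/- vehicle, at 0.19 (SE 0.10, exact permutation p = 0.0910). Without Brd1+/- vehicle 7, Cnih2 missed the unadjusted level (-0.15, limma p = 0.0668) and Gria2 reached it, higher by 0.20 (limma p = 0.0401).

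Markers of some other cells were higher on average in the same comparison. All 9 striatal markers (median 0.47), all 7 oligodendrocyte markers (0.29) and all 3 choroid plexus markers tested (0.58) had a fold change above 0, and 0 of them reached the unadjusted level. The striatal score ran from 3.15 over 3.25 to 3.73 in WT vehicle and from 3.06 over 3.54 to 6.64 in Brd1+/- vehicle, with the highest value in Brd1+/- vehicle 6. The choroid plexus score had a median of -0.33 in WT vehicle and -0.19 in Brd1+/- vehicle, where the same library reached 6.49. The averages of both lists thus include 1 library far from the rest, and the marker fold changes without it are not given here. With both the oligodendrocyte and the striatal score in the model, Cnih2 was at -0.20 (limma p = 0.0127) and Grik5 at -0.18 (limma p = 0.0119), with adjusted p-values of 0.942. The part of the choroid plexus list was not tested.

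The fold changes of the 32 genes between the vehicle groups split into 13 above 0 and 19 below, with a median of -0.02, and the median of all genes was also -0.02. All 6 NMDA genes had a fold change below 0, with a median of -0.13 and 0 of 6 at an unadjusted p-value under 0.05. That count fell to 4 of 6 with median-ratio scaling, with quantile normalization and without WT vehicle 1, so no direction is given for the class.

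Between Brd1+/- IMN and WT IMN, 0 of 32 genes reached the unadjusted level, where 1.97% of all genes were higher and 1.26% lower. The smallest p-value belonged to Grm5, with TPM from 38.1 over 51.0 to 83.0 in WT IMN and from 37.8 over 68.8 to 81.9 in Brd1+/- IMN. Of 9 Brd1+/- IMN libraries 8 were above the WT IMN median, within the range of that group, and the fold change was 0.24 (SE 0.14, exact permutation p = 0.119). Grin2a, the GluN2A subunit, ran from 21.3 to 32.5 TPM in WT IMN and from 21.0 to 31.8 TPM in Brd1+/- IMN, with a fold change of -0.13 (SE 0.085, exact permutation p = 0.150). Grik1 ran from 7.46 to 12.1 TPM in WT IMN and from 8.15 to 17.7 TPM in Brd1+/- IMN, with a fold change of 0.16 (SE 0.12, limma p = 0.203, adjusted p = 1.00). Here 17 fold changes were above 0 and 15 below, with a median of 0.02 beside 0.01 over all genes.

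Pooled over treatments, the genotype comparison called 0 of 32 genes at the unadjusted level (all genes 1.69% higher and 1.94% lower). Cnih2 (-0.12, SE 0.071, limma p = 0.105) and Grik5 (-0.11, SE 0.065, limma p = 0.105) again had the smallest p-values, followed by Grin2c (-0.10, SE 0.065, limma p = 0.152), all with an adjusted p-value of 0.999. The median over the 32 genes was -0.02, beside -0.01 over all genes.

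Imipramine was compared with vehicle within each genotype and over both. In WT mice, Cacng3 alone reached the unadjusted level (0 higher, 1 lower of 32, with 2.03% of all genes higher and 4.57% lower). Cacng3 ran from 94.2 over 179.7 to 205 TPM in WT vehicle and from 60.8 over 137 to 183 TPM in WT IMN. WT IMN held the lowest library of all, 8 of its 10 libraries lay below the WT vehicle median, and the groups overlapped. The fold change was -0.46 (SE 0.21, interval -0.90 to -0.01, limma p = 0.0460, adjusted p = 0.752; exact permutation p = 0.0676). Leaving out WT vehicle 1, the lowest WT vehicle library for Cacng3, gave -0.57. With median-ratio scaling and quantile normalization Cacng3 missed the unadjusted level (-0.44 and -0.41, limma p = 0.0633 and 0.0831), and the gene that reached it was Gria2, higher by 0.14 and 0.16.

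Grin1 ran from 244 over 281 to 321 TPM in WT vehicle and from 236 over 255 to 290.3 TPM in WT IMN, with 9 of 10 below the WT vehicle median. Its fold change of -0.12 was small (SE 0.058, limma p = 0.0549, adjusted p = 0.759; exact permutation p = 0.0433). Of the 128 exact tests made on single genes, 2 fell under 0.05, this one and that of Cnih2 in the vehicle mice, and in 0 of 128 did the groups stand apart without overlap. Cnih2 in WT mice ran from 275 over 328 to 376 TPM with IMN, at -0.14 (SE 0.079, exact permutation p = 0.108). The median over the 32 genes was -0.04, beside -0.01 over all genes.

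In Brd1+/- mice, Grm2 alone reached the unadjusted level with IMN (0 higher, 1 lower of 32, with 3.12% of all genes higher and 2.4% lower). Grm2 ran from 22.4 over 30.002 to 39.2 TPM in Brd1+/- vehicle and from 17.4 over 22.2 to 36.4 TPM in Brd1+/- IMN. With IMN 8 of 9 libraries were below the vehicle median, and the ranges overlapped. The fold change was -0.31 (SE 0.14, interval -0.60 to -0.01, limma p = 0.0433, adjusted p = 0.887; exact permutation p = 0.0596). Grik1 went the other way, from 7.28 over 8.41 to 15.1 TPM with vehicle to 8.15 over 11.6 to 17.7 TPM with IMN, at 0.29 (SE 0.14, exact permutation p = 0.0682). Cnih3 ran from 15.5 over 21.9 to 50.003 TPM with vehicle and from 16.3 over 41.6 to 55.5 TPM with IMN, at 0.43 (SE 0.26, exact permutation p = 0.149). Its interval, -0.12 to 0.98, shows how little the spread of Cnih3 allows to be said. The median over the 32 genes was -0.03, beside 0.01 over all genes, with 20 of 32 below 0. With striatal and oligodendrocyte scores, or with layer scores, as covariates it turned to 0.06 and 0.09, with 22 of 32 above 0.

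**Figure D3:**
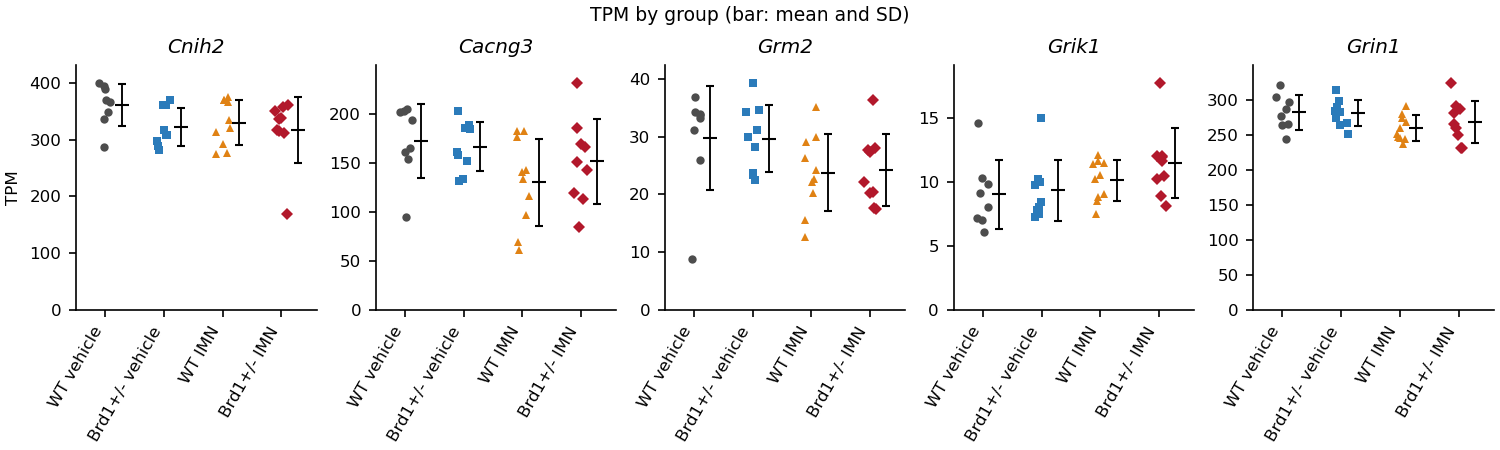
TPM per library in the 4 groups for Cnih2, Cacng3, Grm2, Grik1 and Grin1, 1 point per mouse, with the group mean and SD as bars beside the points. The groups overlap for all 5 genes, and the lowest Cacng3 value, 60.8 TPM, belongs to WT IMN.

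Over both genotypes, 4 of the 32 genes reached the unadjusted level with IMN, 1 higher and 3 lower, where 3.9% of all genes were higher and 5.48% lower. Grik1, which encodes the GluK1 kainate subunit, was at 0.24 (SE 0.099, interval 0.03 to 0.44, limma p = 0.0230, adjusted p = 0.423). Cacng3 was at -0.31 (SE 0.14, interval -0.59 to -0.04, limma p = 0.0257, adjusted p = 0.439). Grin1 was at -0.09 (SE 0.042, interval -0.18 to -0.01, limma p = 0.0342, adjusted p = 0.476) and Grm2, the presynaptic group II receptor, at -0.29 (SE 0.14, interval -0.58 to -0.003, limma p = 0.0480, adjusted p = 0.525). None of the 4 passed the adjustment. The median over the 32 genes was -0.02, beside -0.002 over all genes, with 14 above 0 and 18 below.

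Immediate-early genes, which mark recent neuronal activity, moved with the treatment: 9 of 10 were lower at the unadjusted level with IMN over both genotypes (median fold change -0.62), and Npas4, Egr1 and Arc passed the adjustment. Their mean score was 6.39 and 6.37 in the vehicle groups (WT and Brd1+/-) and 5.84 and 5.77 in the IMN groups. All 7 oligodendrocyte markers were above 0 with a median of 0.37, and 0 of 7 reached the unadjusted level. The part of the immediate-early list in the values of Cacng3, Grm2, Grin1 and Grik1 was not tested. With the upper- and deep-layer scores as covariates the IMN fold changes of Cacng3 and Grm2 were -0.28 (limma p = 0.00797) and -0.27 (limma p = 0.00486), and neither passed the adjustment. With the oligodendrocyte and striatal scores in their place, they were -0.23 (limma p = 0.0501) and -0.22 (limma p = 0.0619), and Grik1 was at 0.17 (limma p = 0.0881). Of the 4 genes, median-ratio scaling kept Grik1 and Cacng3 at the unadjusted level, and quantile normalization kept Grik1.

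No interaction of genotype and IMN was found among the 32 genes: 0 reached the unadjusted level (all genes 2.18% higher and 1.02% lower). The smallest p-values were those of Grin2d (0.16, SE 0.13, limma p = 0.237), Cacng5 (-0.28, SE 0.24, limma p = 0.253) and Cnih3 (0.47, SE 0.42, limma p = 0.265), all with an adjusted p-value of 1.00. For Cnih3 the interval of the interaction ran from -0.37 to 1.31. The median over the 32 genes was 0.04, beside 0.02 over all genes.

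Other genes of the glutamate synapse gave the same count at the adjusted level. Of 47 such genes in the table (scaffolds, kinases and phosphatases, transporters, and receptor relatives), 46 were tested and 0 were called in any comparison. At the unadjusted level, 2 of the 46 were lower with IMN over both genotypes, where 5.48% of all genes were lower. They were Homer1 and Dlgap3, both postsynaptic scaffolds. Homer1, whose short form is induced by activity, had medians of 153 and 154 TPM in WT and Brd1+/- vehicle and 127 and 119 TPM in WT and Brd1+/- IMN, a fold change of -0.39 (limma adjusted p = 0.10). Within WT mice 4 of the 46 were lower, where 4.57% of all genes were (Dlgap3 at -0.20, Homer1 at -0.38, Shank1 at -0.20 and Shisa7 at -0.22). Within Brd1+/- mice 3 of the 46 were lower, where 2.4% of all genes were (Homer1 at -0.40, Cbln2 at -0.33 and Ppp3ca at -0.16). For genotype over both treatments Pick1, a scaffold that binds GluA2, was higher by 0.08, where 1.69% of all genes were higher. In the remaining comparisons 0 were at that level.

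Mice within a group differed along lines that marker genes shared. Each of the 32 genes was correlated with 12 marker scores (the mean log2 level of a marker list) over the 36 libraries, after the group means were taken out, which made 384 relations. Of these, 78 had a permutation p-value adjusted over the 384 under 0.05, 47 positive and 31 negative, and 23 of the genes had at least 1. The relations of the other genes of the table were not computed. The counts thus have no share over all genes beside them and do not mark these genes off from others. In 69 of the 78 the sign was the same within each of the 4 groups. The 78 were called on these same libraries, so that agreement is largely built in and is no separate support. Of the 78, 53 also passed without the 2 libraries farthest from the median of the score. The scores come from the same libraries as the genes, and TPM share 1 total, so the values describe co-variation of transcripts in a punch and not a cell type of origin.

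**Figure D4:**
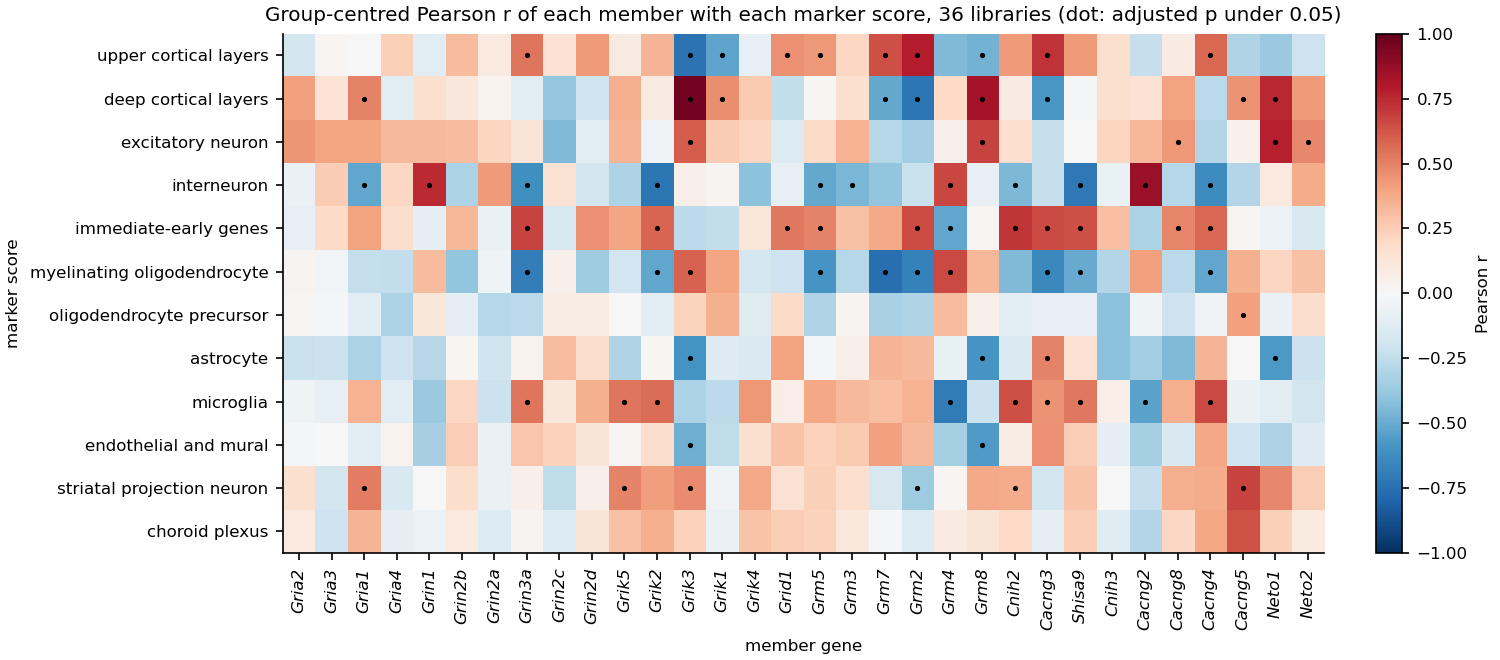
Pearson's r over 36 libraries (group means removed) between the 12 marker scores (rows) and the 32 genes (columns), from -1 to 1 in colour, with a dot where the adjusted permutation p-value is under 0.05. The highest values are those of Grik3 with the deep-layer score (0.97), Cacng2 with the interneuron score (0.86) and Grm8 with the deep-layer score (0.83).

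Grik3, the GluK3 kainate subunit, followed the deep-layer score almost point by point. It ran from 9.90 over 20.9 to 52.9 TPM in WT vehicle, 9.59 over 22.3 to 35.6 in Brd1+/- vehicle, 8.52 over 24.0 to 53.3 in WT IMN and 11.6 over 20.2 to 36.4 in Brd1+/- IMN. Pearson's r with the deep-layer score was 0.97 (permutation p = 1e-05, the smallest that 100000 draws can give, adjusted p = 0.000295) and Spearman's rho was 0.97 (permutation p = 1e-05, adjusted p = 0.000349). It was 0.96 without the farthest libraries, WT vehicle 1 and WT IMN 7, and lay between 0.95 and 0.98 within the 4 groups. Single markers gave 0.95 with Bcl11b, 0.92 with Tle4, 0.91 with Foxp2 and 0.85 with Fezf2, all of the deeper layers, and -0.09 with Rorb, a gene better known from layer 4. With Rorb left out of the score r was again 0.97. With the upper-layer score r was -0.74 (permutation p = 1e-05, adjusted p = 0.000295) and rho -0.80 (permutation p = 1e-05, adjusted p = 0.000349).

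**Figure D5:**
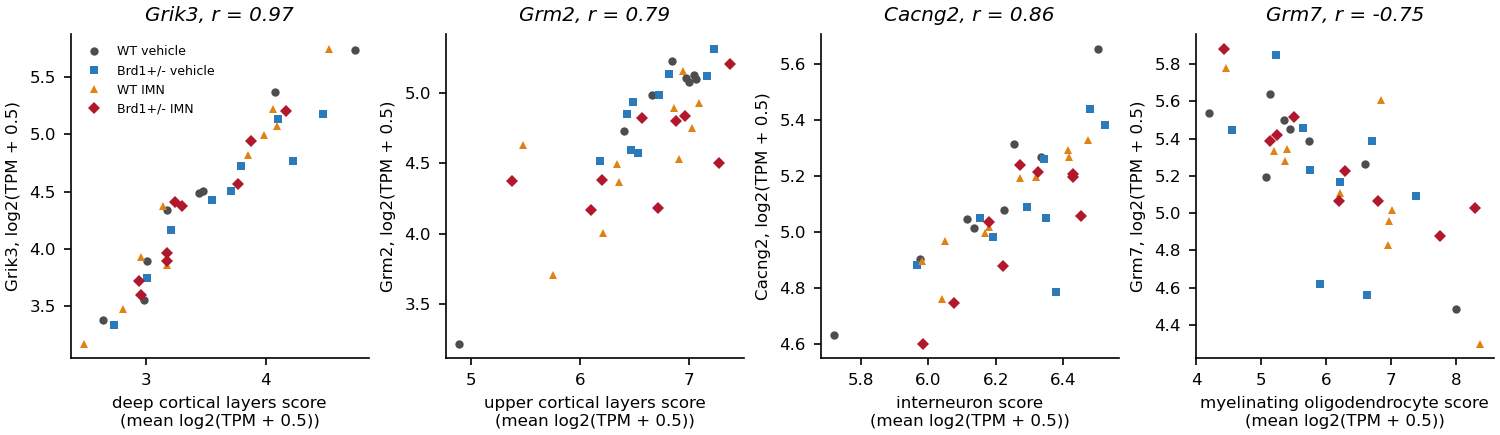
log2(TPM + 0.5) of Grik3, Grm2, Cacng2 and Grm7 (vertical axes) against a marker score (horizontal axes, mean log2(TPM + 0.5) of the list), 1 point per mouse marked by group, as measured, with r after removal of the group means above each panel. Grik3 lies along the deep-layer score (0.97), Grm2 along the upper-layer score (0.79), Cacng2 along the interneuron score (0.86) and Grm7 against the oligodendrocyte score (-0.75), with mice of all 4 groups along each line.

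Grm8, a group III metabotropic receptor, ran with Grik3 along the deep-layer score, with r = 0.83 (permutation p = 1e-05, adjusted p = 0.000295) and rho = 0.86 (permutation p = 1e-05, adjusted p = 0.000349). Neto1 also did, with r = 0.75 and rho = 0.77 at those same p-values, and it followed the excitatory score as well, with r = 0.78 and rho = 0.71, again at those p-values, and 0.65 without WT vehicle 1 and Brd1+/- vehicle 7. WT vehicle 1 held the highest Neto1 of all libraries, 73.3 TPM, and Brd1+/- vehicle 7 the lowest, 22.2 TPM.

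Grm2 and Cacng3 ran the other way. Grm2 followed the upper-layer score with r = 0.79 (permutation p = 4e-05, adjusted p = 0.000668) and rho = 0.77 (permutation p = 1e-05, adjusted p = 0.000349), and 0.70 without WT vehicle 1 and Brd1+/- IMN 6. With the single upper-layer genes its r was 0.83 for Cux2, 0.64 for Rasgrf2, 0.61 for Calb1 and 0.47 for Lamp5. With the deep-layer score r was -0.72 (permutation p = 1e-05, adjusted p = 0.000295) and rho -0.69 (permutation p = 1e-05, adjusted p = 0.000349). Cacng3 followed the upper-layer score with r = 0.72 (permutation p = 4e-05, adjusted p = 0.000668) and rho = 0.82 (permutation p = 1e-05, adjusted p = 0.000349), and 0.60 without the same 2 libraries. Its r was 0.70 with Cux2, 0.68 with Rasgrf2 and 0.66 with Calb1, but 0.29 with Lamp5. Grm2 and Cacng3 are among the genes with the smallest p-values under IMN. The upper-layer score averaged 6.61 and 6.67 in WT and Brd1+/- vehicle and 6.50 and 6.61 in WT and Brd1+/- IMN. The mean of WT vehicle includes WT vehicle 1, at 4.89. The medians were 6.91 and 6.54 in WT and Brd1+/- vehicle and 6.62 and 6.72 in WT and Brd1+/- IMN. The median was thus lower with IMN in WT mice and higher in Brd1+/- mice.

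The interneuron score, a mixed list, gave a second set of relations. Cacng2 followed the interneuron score with r = 0.86 (permutation p = 1e-05, adjusted p = 0.000295) and rho = 0.85 (permutation p = 1e-05, adjusted p = 0.000349). Its single-marker r was 0.85 with Pvalb and 0.71 with Gad1, but -0.20 with Gad2 and -0.45 with Vip, so the list did not move as a unit. Grin1 had r = 0.75 and rho = 0.75 with the score, at the same p-values, and 0.65 with Gad1 and 0.63 with Pvalb, but -0.07 with Gad2 and -0.42 with Vip. Grik2, the GluK2 kainate subunit, ran opposite, with r = -0.73 (permutation p = 2e-05, adjusted p = 0.000452) and rho = -0.73 (permutation p = 2e-05, adjusted p = 0.00048), and so did Shisa9, with r = -0.71 (permutation p = 1e-05, adjusted p = 0.000295) and rho = -0.67 (permutation p = 4e-05, adjusted p = 0.000731).

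Of the genes that ran against the oligodendrocyte score, these had the strongest relations. Grm7, a presynaptic group III receptor, had r = -0.75 (permutation p = 1e-05, adjusted p = 0.000295) and rho = -0.73 (permutation p = 2e-05, adjusted p = 0.00048), and Grin3a had r = -0.70 (permutation p = 1e-05, adjusted p = 0.000295) and rho = -0.64 (permutation p = 3e-05, adjusted p = 0.00064). Grm4 ran against the microglial score, with r = -0.70 (permutation p = 1e-05, adjusted p = 0.000295) and rho = -0.65 (permutation p = 2e-05, adjusted p = 0.00048). Cnih2 followed the immediate-early score within groups, with r = 0.71 (permutation p = 2e-05, adjusted p = 0.000452) and rho = 0.62 (permutation p = 7e-05, adjusted p = 0.00103), and 0.53 without WT vehicle 1 and Brd1+/- IMN 6. Cacng5 with the striatal score had r = 0.67 (permutation p = 0.00286, adjusted p = 0.0183) but rho = 0.31 (permutation p = 0.0708, adjusted p = 0.203), and its r was 0.54 without Brd1+/- vehicle 6, where Cacng5 was highest at 7.47 TPM, and Brd1+/- IMN 6.

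By list, the counts of genes with a relation past the adjusted level were 10 positive and 1 negative for the immediate-early score, 7 and 3 for upper layers, 6 and 3 for deep layers, 7 and 2 for microglia, 5 and 0 for excitatory neurons and 5 and 1 for the striatal score. They were 3 and 8 for interneurons, 2 and 8 for myelinating oligodendrocytes, 1 and 3 for astrocytes, 0 and 2 for endothelial and mural cells, 1 and 0 for oligodendrocyte precursors and 0 and 0 for choroid plexus. No share over all genes was computed for these counts. Of the choroid plexus markers, Ttr was under 0.1 TPM in 18 of the 36 libraries, Clic6 in 21, Folr1 in 34 and Kl in 0. That score could therefore show little. The 9 genes with no called relation were Gria2, Gria3, Gria4, Grin2a, Grin2b, Grin2c, Grin2d, Grik4 and Cnih3. The absence of Cnih3 from the list stands beside its wide spread: it varied between mice more than 98.6% of genes of like level without a called relation to any of the 12 scores.

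The genes were also compared with each other over the 36 libraries, group means removed, as a description with no test. Of the 496 pairs, the highest r were those of Grik3 and Grm8 (0.87), Grin3a and Grm5 (0.87), Grin1 and Cacng2 (0.85), Grik2 and Shisa9 (0.85) and Gria1 and Grik2 (0.84). The lowest were those of Grik2 and Cacng2 (-0.71), Grik3 and Grm2 (-0.68), Cacng2 and Shisa9 (-0.67), Grin3a and Grm4 (-0.65) and Cacng2 and Cacng4 (-0.63). None of the 5 highest pairs joined genes of 1 class. The median r was 0.18 over all pairs and 0.23 over the 75 pairs within a class, and it stood lowest in a class at -0.67, for the AMPA auxiliary genes Cacng2 and Shisa9.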

How the data were processed

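Punches of the right aCC from 36 mice were sequenced by the authors as single-end 50-base reads on a BGISEQ-500, aligned to GRCm38 with HISAT2 2.1.0 and quantified with StringTie 1.3.4 (tools and versions per the submitters' processing notes). The deposited values are TPM per gene and library, made by the authors, with no scaling between libraries. Strand use and the handling of reads with several matches are not given in the sources used here, and the methods give only a lower limit for reads per sample, so the depth of single libraries is unknown. Column totals were 999727.1 to 999889.0, 0 columns were unmatched, and r between libraries was 0.977 to 0.989 over 630 pairs, 0 identical. The authors ran edgeR on counts not used here.

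Values were transformed as log2(TPM + 0.5), and the 25572 genes that reached 0.1 TPM in 8 or more libraries were fitted with limma 3.58.1 in R 4.3.3 (intensity trend, two-sided, Benjamini-Hochberg over all genes tested). The 4 comparisons of groups used only their own libraries, and the pooled and interaction fits used all 36. Exact permutation tests were two-sided over 24310 to 92378 arrangements of the libraries. Relations with the 12 marker scores used two-sided permutations within groups (100000 draws, adjusted over 384). Python 3.11.15 with NumPy 2.4.6, pandas 2.3.3, SciPy 1.17.1 and matplotlib 3.10.9 was used. The fits were tested on simulated data.

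Groups came from the labels. The members and lists were chosen with earlier results of these data known. All 32 genes are named, and full values are given for those with an unadjusted p-value under 0.05 or, where fewer than 3 reached it, the 3 smallest p-values. Of the other synapse genes, up to 4 per comparison at an unadjusted p-value under 0.05 are named. The single markers, the Grik3, Grm2 and Grin1 promoters and the libraries that stand apart were picked after their values were seen. Alternatives were the pseudocount, the filter, the scaling, the trend, covariates, pooled spread, a replicate block and leaving out each library. The labels name no litter, batch or date per library.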

Additional observations from a re-analysis of the deposited data

Results flagged for a closer look

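Each gene was examined in each group for a library whose gap to the nearest other library passed Dixon's 95% critical value for the group size. Of 128 gene and group combinations, 20 passed, where chance gives about 1 in 20, and most fell in the libraries that already stood apart by their markers.

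WT vehicle 1 held 5 of them. Its Grm2 was 8.83 TPM (others 26.0 to 36.9), its Grm7 21.9 TPM (36.1 to 49.3) and its Cacng3 94.2 TPM (154 to 205), all lowest, while its Neto1 at 73.3 TPM (38.1 to 45.2) and its Neto2 at 39.6 TPM (18.0 to 25.0) were highest. It also had the lowest upper-layer and highest deep-layer score of its group.

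Brd1+/- IMN 6, the library with the highest Slc17a6 and Cbln1, was lowest of its group in Grin2b at 25.7 TPM (43.5 to 63.1), Grik5 at 68.6 TPM (108 to 137), Cacng8 at 14.8 TPM (all others 25.6 or more), Cnih2 at 170.0 TPM (312 to 361) and Neto1 at 26.5 TPM (40.2 to 52.9). It was highest in Grik1 at 17.7 TPM (8.15 to 12.1). Brd1+/- vehicle 7 was lowest in Grm3 at 22.0 TPM (35.2 to 51.0), Grm5 at 28.2 TPM (47.8 to 74.2), Cacng8 at 18.7 TPM (25.1 to 29.9) and Neto1 at 22.2 TPM (41.1 to 52.9).

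Brd1+/- vehicle 6, with choroid plexus and striatal markers, was highest in Cacng4 at 37.1 TPM (21.2 to 28.1) and Cacng5 at 7.47 TPM (2.26 to 4.07). The other 3 were Cacng5 in WT IMN 7 at 6.21 TPM (2.30 to 3.15), Grin2d in WT IMN 9 at 10.8 TPM (6.66 to 8.58) and Grik1 in Brd1+/- vehicle 9 at 15.1 TPM (7.28 to 10.2). What set these libraries apart was not tested.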

How the results depend on the processing

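Under every alternative, 0 of the 32 genes had an adjusted p-value under 0.05 in any comparison, and the lowest adjusted p was 0.0851 (Grm2, limma, IMN over both genotypes without WT vehicle 1, fold change -0.40). Counts at the unadjusted level were small and moved with the setting, and no single-gene direction given in the report reversed. A count was taken as unchanged if it was equal or within 1.5 times. A median was taken as unchanged if it moved by less than 0.157, whatever its sign. Every main median over the 32 genes was smaller in size than that limit, so a turn of sign could pass as unchanged. By that rule 415 counts and medians were unchanged, 27 counts rose further and 38 counts fell further. Adjusted counts that stayed at 0 and all these medians are among the unchanged, so that total is no measure of stability. For single genes, 434 values kept their side of the p-value level, 35 came under it and 69 left it.

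For Brd1+/- vehicle against WT vehicle (1 gene), the unadjusted count was 0 with median-ratio scaling, with no intensity trend and with all libraries in 1 fit, 2 with score covariates (striatal and oligodendrocyte), 6 with layer score covariates, and 0 to 2 when each library was left out in turn. For Brd1+/- IMN against WT IMN (0 genes) it was 1 with score covariates, with layer score covariates and without the 3 libraries high in Slc17a6 and Cbln1, and 0 to 1 on leaving out 1 library. For Brd1+/- IMN against Brd1+/- vehicle (1 gene) it was 0 with no filter, median-ratio scaling, quantile normalization, all libraries in 1 fit and without those 3 libraries, 4 with score covariates (3 higher), 8 with layer score covariates (7 higher), and 0 to 2 on leaving out 1 library. For WT IMN against WT vehicle (1 gene) it was 0 with no intensity trend, 2 with score covariates (Grin1 and Grik5), layer score covariates and without the 3 libraries (both Grin1 and Cacng3), and 0 to 6 on leaving out 1 library. The 6 came without WT vehicle 1 (Gria2 higher, and Grik2, Grm2, Cacng3, Cacng4 and Cnih2 lower, where 3.85% of all genes were higher and 6.71% lower).

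For IMN over both genotypes (4 genes) it was 2 with median-ratio scaling and without the 3 libraries, and 1 with quantile normalization. It was 3 with score covariates, of which only Grin1 was among the 4 (the others were Grm4 and Grm5), and 5 with layer score covariates, the 4 and Grm8. For genotype over both treatments (0 genes) it was 2 with score covariates and with layer score covariates and 1 without the 3 libraries. The cause of these moves was not tested. The background moved as well: with layer score covariates, 6.14% of all genes were lower between the vehicle groups, and 4.94% were higher and 2.51% lower between the Brd1+/- groups. The layer covariates, the omission of the 3 libraries and the deep-layer score without Rorb were chosen after seeing the data. Of the 384 relations with marker scores, 78 passed, and the count was 69 without the 2 farthest libraries, 87 with median-ratio scaling and 78 with the deep-layer score lacking Rorb.

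Libraries with the same replicate number did not deviate together (r from -0.26 to 0.26, over 0.1 in 1 pair), and the main fits used no pairing. The labels name no litter or batch, so these values cannot show whether the numbers follow either. With a replicate block the IMN comparison over both genotypes gave 2 genes, and 0 of the 32 passed the adjusted level. TPM hold no depth, so the counting error of low genes such as Cacng5 is unknown. For Grik3 the interval of the WT IMN against WT vehicle fold change ran from -0.70 to 0.82, so changes anywhere in that range are not excluded.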
